A study of Mus musculus with 4 samples.

Results

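Of the 6 mesenchymal basic helix-loop-helix (bHLH) genes Twist1, Twist2, Hand1, Hand2, Tcf21 and Msc, only Twist2 and Tcf21 had Ring1b regions in the table used here, and these 2 loci differed in how their Ring1b levels in cells expressing H3.3 K36M compared with WT. The Tcf21 regions together were 2.82-fold lower in K36M than in WT cells, and the Twist2 regions stood at nearly the same level in both. Over all regions of the table, the summed level was 1.58-fold lower in K36M. Members were the regions of the table that overlap a fixed window around each gene on the mouse build mm9, which gave 4 of 6371 regions, 2 at Twist2 and 2 at Tcf21. Windows around Twist1, Hand1, Hand2 and Msc held no region. Ring1b levels given for Twist2 or Tcf21 are those of the regions overlapping its window. Where these regions lie relative to the gene was not determined.

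Ring1b had been profiled by chromatin immunoprecipitation and sequencing (ChIP-seq) in C3H10T1/2 cells, a mesenchymal progenitor line derived from C3H mouse embryos, between passages 10 and 15. The K36M cells stably expressed FLAG-HA-tagged H3.3 in which lysine 36 is replaced by methionine. Their WT counterparts stably expressed FLAG-HA-tagged wild-type H3.3, so both carried a tagged histone beside their own H3. Each form had 1 Ring1b library and 1 input library, and input values were not analysed here. Whether the lines were clones or pools is not given in the sources used here, and with no expression data the cell type could not be checked against markers. With 1 library per form, no value carries an error between cultures and no test of K36M against WT was possible. Fold values carry an exact 95% counting interval, which covers counting error alone; the reads carry no molecular identifiers, so duplicates of a molecule count as separate reads.

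Ring1b is the catalytic subunit of Polycomb repressive complex 1 (PRC1), which attaches ubiquitin to histone H2A and keeps developmental genes silent, mostly at stretches of DNA rich in CpG dinucleotides. The bHLH factors pair with partner proteins and bind short DNA words called E-boxes. Twist1 and Twist2 hold mesenchymal progenitors back from differentiation into bone and muscle. Hand1 and Hand2 pattern the heart, limb and other embryonic mesenchyme. Tcf21 acts in the mesenchyme of lung, kidney and epicardium and marks fibroblast lineages, and Msc (musculin) is a repressor of muscle genes.

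The RefSeq promoter windows of these genes, 250 bases before to 50 after the start of the gene on GRCm38.p6, are shown because CpG content is a sequence feature closely tied to Polycomb binding in mammals. The table held entries for 4 of the 6 genes, Twist1, Twist2, Hand2 and Tcf21. Capitals mark CpG dinucleotides. Positions on GRCm38.p6 cannot be set against the mm9 regions, so whether a region covers one of these windows was not determined. The 3 sequences are those of the genes with a region, and of Twist1 as the paralogue of Twist2 without one, from chr1:91801211-91801510 (plus strand) for Twist2, chr10:22820094-22820393 (minus strand) for Tcf21 and chr12:33957421-33957720 (plus strand) for Twist1.
Twist2: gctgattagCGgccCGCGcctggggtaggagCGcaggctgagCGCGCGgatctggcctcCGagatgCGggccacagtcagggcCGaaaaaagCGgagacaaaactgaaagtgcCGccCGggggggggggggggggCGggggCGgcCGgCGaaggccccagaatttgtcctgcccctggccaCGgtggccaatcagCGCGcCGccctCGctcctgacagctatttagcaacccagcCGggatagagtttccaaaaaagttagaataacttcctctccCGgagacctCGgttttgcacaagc
Tcf21: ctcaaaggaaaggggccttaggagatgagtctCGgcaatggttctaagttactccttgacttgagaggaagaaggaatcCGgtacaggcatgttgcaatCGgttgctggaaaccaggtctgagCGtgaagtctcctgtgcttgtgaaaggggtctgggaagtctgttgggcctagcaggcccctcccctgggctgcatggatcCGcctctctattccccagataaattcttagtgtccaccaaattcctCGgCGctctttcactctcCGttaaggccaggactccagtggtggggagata
Twist1: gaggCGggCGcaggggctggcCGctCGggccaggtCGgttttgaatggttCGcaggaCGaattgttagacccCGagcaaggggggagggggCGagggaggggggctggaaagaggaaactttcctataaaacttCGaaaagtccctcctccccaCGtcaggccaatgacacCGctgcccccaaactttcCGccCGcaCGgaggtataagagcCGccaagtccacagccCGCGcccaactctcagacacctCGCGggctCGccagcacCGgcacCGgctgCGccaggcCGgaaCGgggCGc

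The Twist2 window held 25 CpG dinucleotides and 64.7% G and C, more CpGs than 81.6% of the 32851 promoters of the table. Tcf21 held 8 CpGs and 53.3% G and C, close to the table's medians of 7 CpGs and 52.7%. The promoter windows of the 2 genes with a Ring1b region thus differed in CpG content. Twist1, whose window held no region, was as rich in CpG as Twist2, with 27 CpGs and 66.0% G and C. Hand2, also without a region, held 17 CpGs and 50.3% G and C. Its CpG count relative to that expected from base composition was 0.897, against 0.827 for Twist1, 0.803 for Twist2 and 0.378 for Tcf21, with a median of 0.384 over all promoters. The E-box word CANNTG, which reads the same on both strands, occurred 2 times in the Hand2 window, as CATCTG and CACTTG, and not in the other 3. At least 1 such word occurred in 72.3% of all promoters.

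**Figure D1:**
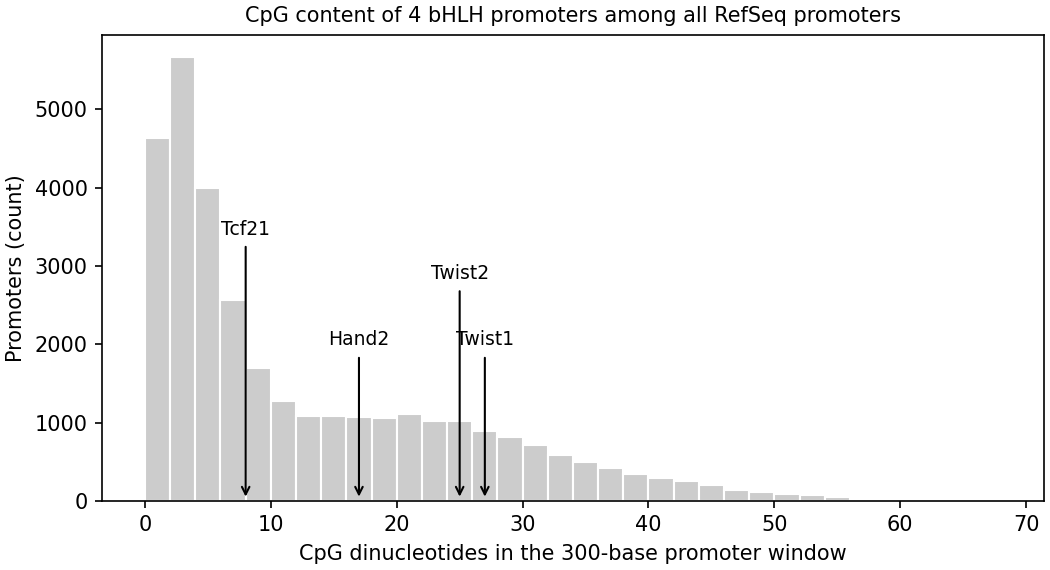
Grey bars count RefSeq promoter windows (y axis) by their number of CpG dinucleotides (x axis, 300 bases per window), and arrows mark 4 of the bHLH genes. Tcf21 sits at 8 CpGs near the median of 7, and Hand2, Twist2 and Twist1 sit above it at 17, 25 and 27.

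Levels are given in RPM, reads per 1000000 reads, with 1 read worth 0.0317 RPM in K36M and 0.0335 RPM in WT, and are not divided by region width unless given in RPM per kb. Over the whole table, 720528 K36M and 1075510 WT reads fell in the regions, and the summed level was 1.58-fold lower in K36M. The median region had a log2 ratio of -0.65, where the log2 ratio is log2((K36M + 0.1)/(WT + 0.1)) on the RPM scale and understates the change of low regions. K36M levels were 1.5-fold lower or more at 53.4% of all regions and 2-fold lower or more at 33.5%. Both Tcf21 regions and neither Twist2 region were past each of these folds. That is 2 of 4 regions, near the table's share at 1.5-fold and above its share at 2-fold, and 4 regions are too few to compare shares. Of the 4 bHLH regions, 0 were at least 1.5-fold higher in K36M, against 1.22% of all regions. The regions were selected on WT peaks, per the name of the table, so a locus bound by Ring1b in K36M cells alone would not be listed.

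At Twist2 (window at chromosome 1, 93.65 to 93.79 Mb, mm9), Ring1b occupied 3000 bp in 2 touching regions. The 2600-bp region at chr1:93710801-93713400 held 2.66 RPM in K36M cells, against 2.71 RPM in WT cells, from 84 and 81 reads. That is a ratio of 0.981, with a counting interval of 0.715 to 1.35 that includes 1. The 400-bp region next to it, chr1:93713401-93713800, held 1.05 RPM in K36M and 1.00 RPM in WT (33 and 30 reads), a ratio of 1.04 with an interval of 0.615 to 1.77. Both intervals include 1, as they did at 31.9% of all regions, and 0 of the 4 bHLH regions had an interval wholly above 1, against 3.06% of all regions. Per kb the small region was the denser of the pair in both libraries, with 2.62 RPM per kb in K36M and 2.51 in WT, against 1.02 in K36M and 1.04 in WT for the 2600-bp region.

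Summed over the locus, Twist2 held 3.71 RPM in K36M and 3.72 RPM in WT, a ratio of 0.997 with an interval of 0.763 to 1.31. The summed ratio of the other 6367 regions, 0.634, lay outside that interval, which covers counting error only and makes no allowance for width or WT density. The Twist2 ratio was 1.57 times that of all other regions summed, with an interval of 1.20 to 2.06. In the ranking of log2 ratios, 84.2% of all regions lay below the 2600-bp region and 87.0% below the 400-bp region.

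Twist2 levels were low for their width in WT cells and middling in K36M cells. Background reads were not taken off, so how much of the Twist2 level in either library was background is unknown. Among the 653 regions of 0.75 to 1.25 times its width, the 2600-bp region ranked 281st in K36M by RPM per kb and 589th in WT. Among 1180 regions of like width, the 400-bp region ranked 511th in K36M and 1131st in WT. Regions of like width with the same or a lower WT density also had higher log2 ratios than their whole width class. The WT level is also the lower part of that ratio, so choosing regions of low WT density by itself favours higher ratios. For the 2600-bp region there were 64 of these, with a median log2 ratio of -0.37 against -0.83 for its whole width class, and 20 of the 64 had a higher log2 ratio than the -0.03 of the Twist2 region. For the 400-bp region there were 49, with a median of -0.87 against -1.03 for its width class, and 7 of them had a higher log2 ratio than its 0.05.

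At Tcf21 (window at chromosome 10, 22.49 to 22.58 Mb, mm9), Ring1b occupied 24600 bp in 2 regions that lie 6800 bp apart and together span 31400 bp. The 4200-bp region at chr10:22535001-22539200 held 2.79 RPM in K36M cells, against 10.6 RPM in WT cells, from 88 and 315 reads. It was 3.78-fold lower in K36M, with an interval of 2.98- to 4.85-fold. The 20400-bp region at chr10:22546001-22566400 held 10.2 RPM in K36M and 26.1 RPM in WT (322 and 780 reads), 2.56-fold lower with an interval of 2.25- to 2.92-fold. Both intervals lay wholly on the side of lower K36M levels, as did those of 65.1% of all regions.

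The narrower Tcf21 region was lower in K36M by a larger fold than the wide one. Its ratio of K36M to WT was 0.677 times that of the 20400-bp region, with an interval of 0.510 to 0.892. In density the 4200-bp region stood at 0.664 RPM per kb in K36M and 2.51 in WT, and the 20400-bp region at 0.500 in K36M and 1.28 in WT. The narrower region was thus 1.33 times as dense as the wide one in K36M cells and 1.96 times as dense in WT cells. The wide region held 78.5% of the locus reads in K36M and 71.2% in WT. Background reads were not taken off, and at a low density they can limit a fold, so their part in this difference was not tested.

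**Figure D2:**
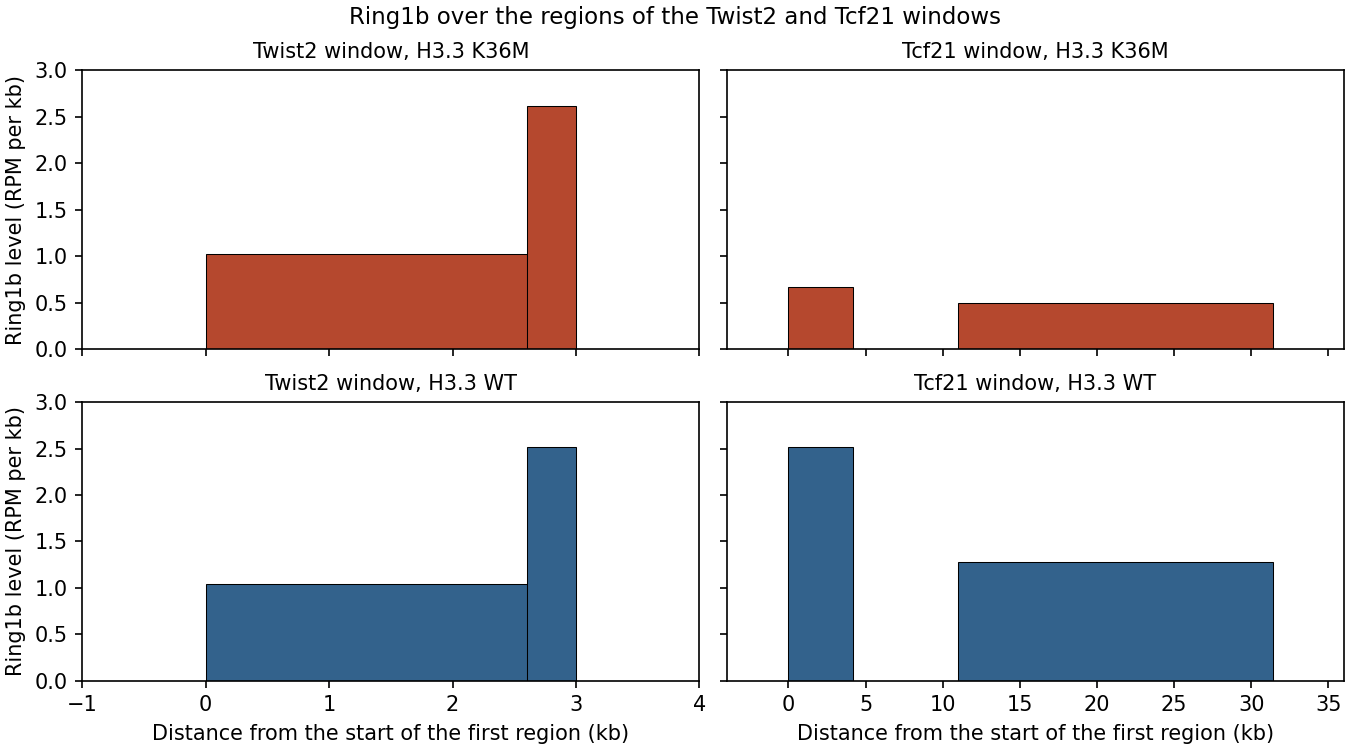
Ring1b level in RPM per kb (y axis, one scale for all panels) over the regions of the Twist2 window (left) and the Tcf21 window (right), by distance from the start of the first region in kb (x axes differ between loci), with K36M above WT and 1 library per panel. The Twist2 regions have nearly equal heights in both rows, and both Tcf21 regions are lower in K36M, at 0.664 and 0.500 RPM per kb, than in WT, at 2.51 and 1.28.

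The wide Tcf21 region ranked high in WT by its total level and not by its density over the whole table. By RPM not divided by width it ranked 210th of 6371 in K36M and 17th in WT, and by width it ranked 101st. By RPM per kb it ranked only 5252nd in K36M and 3944th in WT, below the table medians of 0.921 RPM per kb in K36M and 1.75 in WT. Among 281 regions of like width it ranked 100th in K36M by RPM per kb and 9th in WT, and its log2 ratio of -1.35 was the 16th lowest, with a median of -0.50 for the class. The 4200-bp region ranked 635th of 1011 regions of like width in K36M and 78th in WT, and its log2 ratio of -1.88 was the 60th lowest, with a class median of -0.71. Regions of like width that were at least as dense in WT had lower log2 ratios than their whole width class. Because the WT level is part of the ratio, choosing regions of high WT density by itself favours lower ratios. The 8 such regions for the wide one had a median log2 ratio of -1.66, and 5 of the 8 lay lower than it. The 78 for the 4200-bp region had a median of -1.45, and 27 of them lay lower.

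Summed, Tcf21 held 13.0 RPM in K36M and 36.7 RPM in WT over its 24.6 kb, 2.82-fold lower with an interval of 2.52- to 3.17-fold. Its ratio was 0.559 times that of all other regions summed, with an interval of 0.498 to 0.626.

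Set against Twist2, Tcf21 kept a 2.82-fold smaller part of its WT level, with an interval of 2.10- to 3.78-fold for this difference between the loci. Because both loci were read from the same 2 libraries, this value does not depend on how the libraries were scaled, and it covers counting error only. In K36M cells Tcf21 held 0.528 RPM per kb and Twist2 1.24. In WT cells Tcf21 held 1.49 RPM per kb and Twist2 1.24. Tcf21 thus stood at 0.427 times the density of Twist2 in K36M, with a counting interval of 0.347 to 0.529. In WT it stood at 1.20 times the density of Twist2, with an interval of 0.989 to 1.48 that includes 1. These density ratios make no allowance for width, and narrow regions were denser. The median WT density was 5.49 RPM per kb in the width class of the 400-bp Twist2 region. It was 0.649 in that of the 20400-bp Tcf21 region. Within their width classes in WT, the Tcf21 regions ranked 78th of 1011 and 9th of 281. The Twist2 regions ranked 589th of 653 and 1131st of 1180. Of all reads at the 4 regions, Tcf21 held 77.8% in K36M and 90.8% in WT, so a sum over the group mostly describes Tcf21. That sum was 16.7 RPM in K36M and 40.4 RPM in WT, 2.42-fold lower with an interval of 2.18- to 2.68-fold. The median log2 ratio of the 4 regions was -0.69, close to the -0.65 of all regions, but no single region lay near it, as the log2 ratios were -1.88 and -1.35 at Tcf21 and -0.03 and 0.05 at Twist2.

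**Figure D3:**
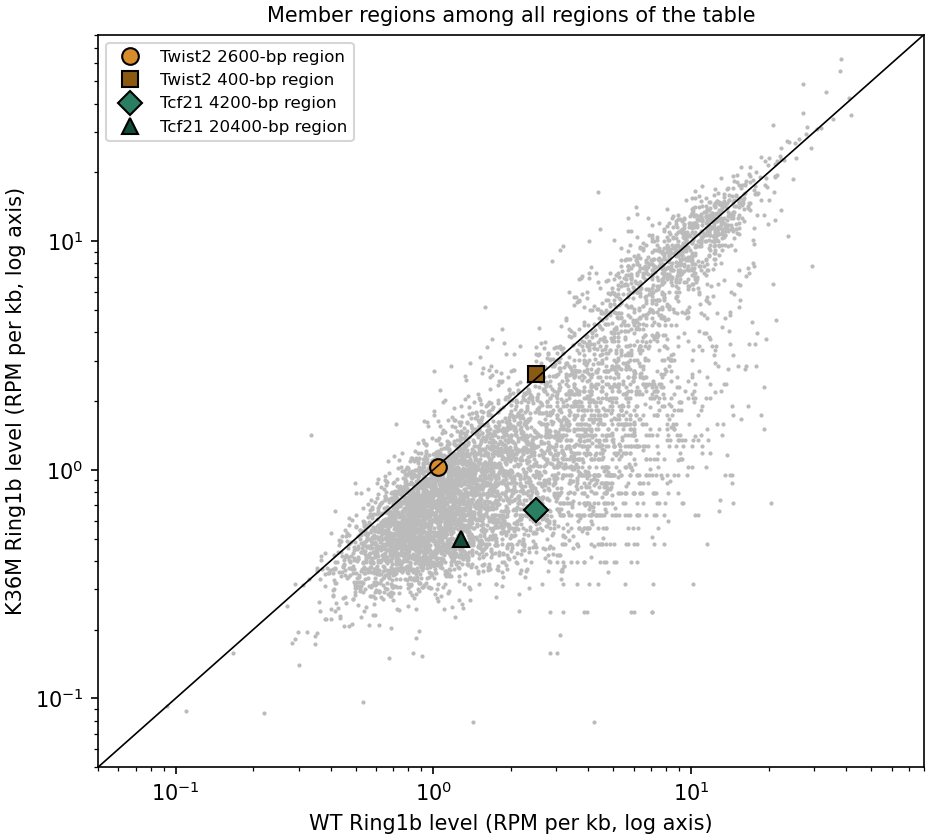
Each grey point is a region of the table, placed by its WT level (x axis) and its K36M level (y axis) in RPM per kb on log axes, for the 6367 regions that lie between 0.05 and 80 on both; the line marks equal levels. Both Twist2 regions lie close to the line, and both Tcf21 regions lie below it, at 0.664 and 0.500 in K36M against 2.51 and 1.28 in WT.

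The nearest regions outside the Twist2 window were lower in K36M, with counting intervals that exclude equal levels. Their ratio intervals, 0.481 to 0.867 and 0.466 to 0.813, overlap the 0.763 to 1.31 of Twist2. Their difference from Twist2 was not tested. The nearest region on the low-coordinate side, chr1:93587601-93590000, lay 60.0 kb from the window and held 2.54 RPM in K36M and 3.92 RPM in WT, 1.55-fold lower with an interval of 1.15- to 2.08-fold. On the other side, chr1:94022201-94028800 lay 232.2 kb away and held 2.79 RPM in K36M and 4.52 RPM in WT, 1.62-fold lower (interval 1.23- to 2.15-fold). Both flanking ratios, 0.647 and 0.617, were close to the 0.634 of the table. Of the 12 regions within 1 Mb outside the Twist2 window, 11 were lower in K36M, 6 of them by 1.5-fold or more, with a median log2 ratio of -0.58. In the gene order of GRCm38.p6, the protein-coding neighbours of Twist2 are Asb1 and Hdac4.

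The nearest regions of Tcf21 were lower in K36M by folds similar to its own. On the high-coordinate side, chr10:22722401-22723600 lay 142.4 kb from the window and held 1.24 RPM in K36M and 4.22 RPM in WT, 3.41-fold lower with an interval of 2.37- to 5.02-fold. On the low-coordinate side, a 200-bp region at chr10:21877801-21878000 lay 612 kb away and held 0.285 RPM in K36M and 1.21 RPM in WT, from only 9 and 36 reads, 4.23-fold lower with an interval of 2.00- to 9.98-fold. Over the 18 regions within 1 Mb outside the window, log2 ratios ranged from -1.91 to 0.93 with a median of -0.49, and 5 were at least 2-fold lower. The whole neighbourhood thus did not share folds of the size seen at Tcf21. The protein-coding neighbours of Tcf21 in the gene order are Tbpl1 and Eya4.

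For the other 4 genes, the table gives no Ring1b level, and the distance to the nearest listed region differed widely. At Hand1 (chromosome 11, 57.60 to 57.69 Mb) no region lay within 1 Mb of the window, and the nearest ones were 2.90 Mb away on the low side and 1.72 Mb away on the high side. The low-side one, chr11:54696401-54696600, held 0.697 RPM in K36M and 1.57 RPM in WT, and the high-side one, chr11:59407801-59411800, held 3.68 RPM in K36M and 3.05 RPM in WT, with an interval of the ratio of 0.909 to 1.61 that includes 1. Over the whole table, 10.0% of the gaps between neighbouring regions were wider than 1 Mb, and the median gap was 42.8 kb. At Twist1 (chromosome 12, 34.60 to 34.69 Mb) the nearest region lay 939 kb away at chr12:33660001-33661000, with 0.634 RPM in K36M and 2.48 RPM in WT, 3.91-fold lower (interval 2.36- to 6.77-fold). On its high side, 1.19 Mb away, chr12:35878401-35888600 held 10.9 RPM in K36M and 12.7 RPM in WT, a ratio of 0.861 with an interval of 0.742 to 0.999. At Hand2 (chromosome 8, 59.75 to 59.85 Mb) it lay 647 kb away at chr8:59096801-59103000, with 3.87 RPM in K36M and 11.7 RPM in WT, 3.03-fold lower (interval 2.46- to 3.76-fold). On its high side, 3.35 Mb away, chr8:63196601-63197000 held 0.380 RPM in K36M and 2.31 RPM in WT, from 12 and 69 reads. A missing row shows only that no region of the WT list lies there, and whether Ring1b was bound below the authors' threshold is unknown.

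Msc (chromosome 1, 14.70 to 14.79 Mb) had no region of its own but lay beside several with much lower levels in K36M. The nearest, chr1:14618201-14620400, was 79.6 kb from the window and held 0.761 RPM in K36M and 2.48 RPM in WT, 3.26-fold lower with an interval of 2.03- to 5.40-fold. All 7 regions within 1 Mb of the window were at least 2-fold lower in K36M, with log2 ratios from -2.78 to -1.58. The gene before Msc in the RefSeq order is Eya1, a developmental regulator, and which gene these regions belong to was not determined. On the high side the nearest region was 1.43 Mb away, at chr1:16216401-16220000, and was higher in K36M, with 9.83 RPM in K36M and 7.34 RPM in WT, a ratio of 1.34 with an interval of 1.12 to 1.60.

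**Figure D4:**
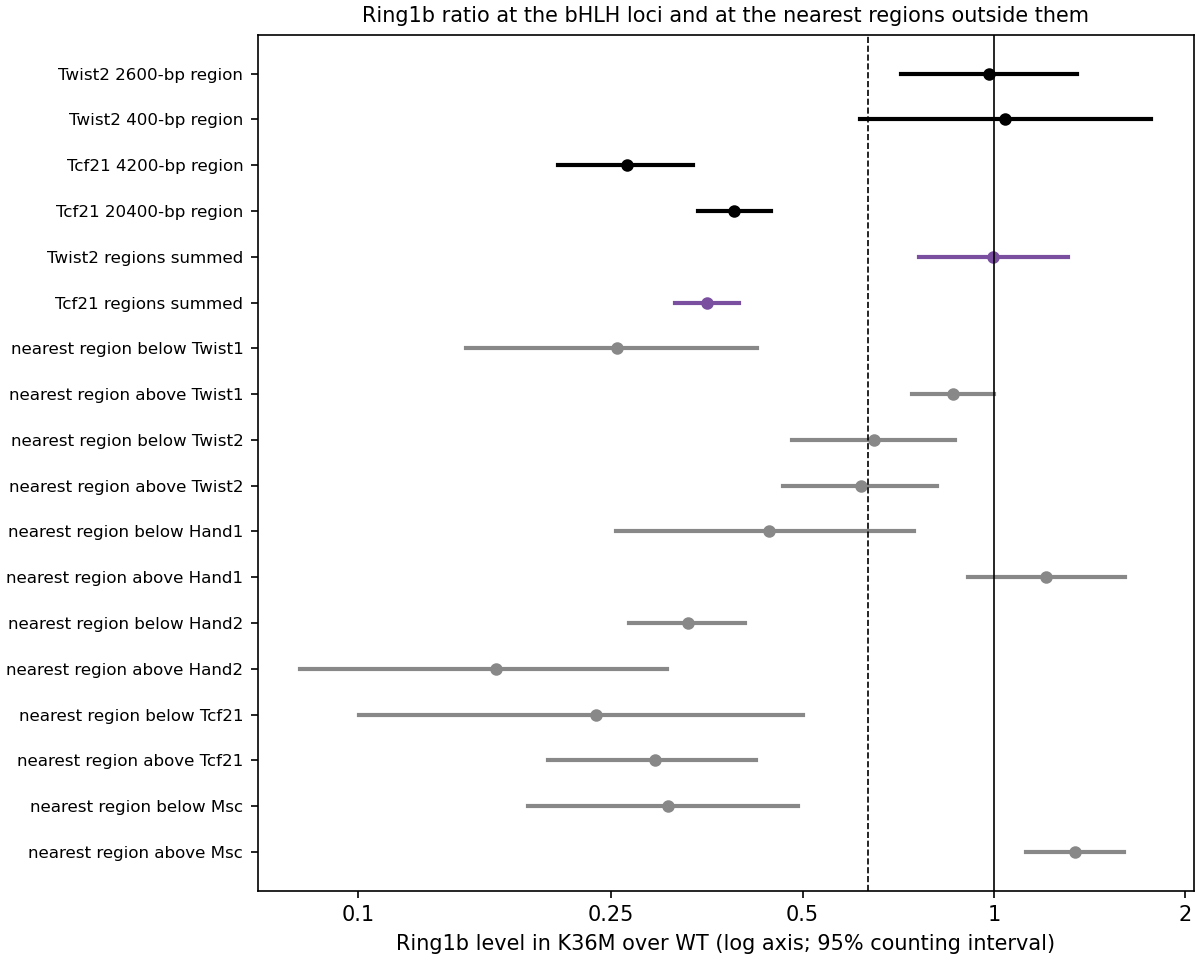
Ratio of the Ring1b level in K36M to that in WT (x axis, log scale) with its 95% counting interval, for the 4 bHLH regions (black), the sums per locus (purple) and the nearest region on each side of each of the 6 windows (grey; below and above refer to lower and higher coordinates). The solid line marks equal levels and the dashed line the summed ratio of all regions, 0.634; the Twist2 sum of 0.997 lies at the solid line, and the Tcf21 sum of 0.354 lies left of the dashed line.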

How the data were processed

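Chromatin was fixed with 1% formaldehyde, sonicated and precipitated with a Ring1b antibody, with 5% kept as input, per the labels' protocols. Bowtie 1.0.0 and mm9 are named in the submitters' processing notes; how peaks were called, duplicates treated and reads counted is not given in the sources used here. Values as deposited are headed RPKM, but the values of each library are whole multiples of 1 step (tolerance 0.01 reads) whatever the region width, so the authors' values are used as RPM. If 1 step is 1 read per 1000000, the steps give depths of about 31545741 reads in K36M and 29850746 in WT, of which only the first 3 digits carry information.

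The windows were intersected with the table, and starts, counted from 0 in the file, are printed from 1. Steps gave whole reads. Ratios carry exact Clopper-Pearson 95% intervals conditional on the total reads, and differences between loci the conditional odds ratio interval (Python 3.11.15, scipy 1.17.1, numpy 2.4.6, pandas 2.3.3, matplotlib 3.10.9). The interval was tested only on simulated counts that held counting error alone. That test does not cover duplicates, background or spread between cultures. Every region in a window is named, as is the nearest outside on each side. Members, windows and comparisons were chosen with earlier results of these data known. No list of other pathway genes was used, since the table names no genes and no mm9 annotation was used.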

Additional observations from a re-analysis of the deposited data

How the results depend on the processing

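The 2 regions at least 1.5-fold lower in K36M stayed 2 at 2-fold, by counting interval, without the lowest quartile of mean level and after centring. Pseudocounts of 1 or none, regions wholly inside the windows, and windows widened by 50 kb moved no ratio beyond its counting interval. Centring on the median region gave log2 ratios of -1.23 and -0.69 for the 4200-bp and 20400-bp Tcf21 regions and 0.63 for the 2600-bp Twist2 region. Centring on the summed ratio of all regions gave -0.84 for Tcf21, 0.65 for Twist2 and -0.62 for both together, so Twist2 is level with WT as deposited and above the table when centred. Without its widest region Tcf21 stood at -1.92. The sum over loci, -1.27 on the log2 scale, was -1.50 without Twist2 and -0.0037 without Tcf21. The median of the 4 regions was -1.35 after merging touching regions or removing low ones, each of which leaves 3 values, and -0.034 after centring. No paired analysis was possible because each form has 1 Ring1b library. Depth limits Twist2 most, since its smaller region rests on 33 K36M and 30 WT reads.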
